A study of Mus musculus with 6 samples.

Results

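Cadherins are calcium-dependent adhesion proteins through which neighbouring cells hold on to each other. The set described here was Cdh1, Cdh2, Cdh4, Cdh6, Cdh8, Cdh10, Cdh11, Cdh13 and Cdh20 with protocadherin 17 (Pcdh17), which were 10 of 22180 genes tested. They were found as the rows of the array annotated to exactly 1 of these symbols, 13 of 41345 rows, since Cdh1, Cdh2 and Cdh4 had 2 rows each. Expression was compared between 3 arrays of tail and 3 arrays of brachial neural progenitor cells (NPCs). The aim was to see how adhesion genes differ between NPCs of the caudal end and of a more anterior level of the body axis. Brachial tissue is defined in the methods as lying between the hindbrain and the forelimbs. Both groups came from mouse embryos of E12.5 by the sample labels (E12 in their descriptions), which give no genotype or treatment, and both were grown as neurospheres, floating clusters of progenitors, in serum-free N2 medium with B27 and daily bFGF and EGF at 20 ng/ml each. The methods name C57BL/6 for work on wild-type animals and also used transgenic lines, and do not say which embryos the arrays came from. The tail tissue was freed of somites only as far as the dissection allowed. Nothing in the sources says that the 3 arrays of a group came from separate cultures, so p-values measure the spread between these samples, which may be technical.

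In a classical cadherin the extracellular repeats bind a partner on the next cell, and the cytoplasmic tail binds catenins, which link it to actin. Type I and type II cadherins sort cells by selective binding, and the spinal cord uses several type II cadherins to keep pools of neurons apart. N-cadherin (Cdh2) holds the neural tube together once E-cadherin (Cdh1) has been switched off there, whereas cadherin 11 is known for loose mesenchyme and bone-forming cells. By this background Cdh4, Cdh6, Cdh8, Cdh10, Cdh20 and Pcdh17 were counted as neural, Cdh11 as mesenchymal, Cdh1 as epithelial, and Cdh2 and Cdh13 as shared by neural and other tissues.

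RefSeq promoter windows of build GRCm38.p6 ran from 250 bases before to 50 bases after a listed start site. They were at hand for 5 members (Cdh6, Cdh8, Cdh10, Cdh20 and Pcdh17) and not for Cdh1, Cdh2, Cdh4, Cdh11 and Cdh13. That site was the start of the whole gene for Pcdh17 only. The Cdh10 window lay wholly inside the gene, which starts at chr15:18818869, and that outer start was not examined. The windows of Pcdh17 (chr14:84443313-84443612, plus strand), Cdh10 (chr15:18820079-18820378, plus strand) and Cdh20 (chr1:104768270-104768569, plus strand) are shown because these are the 3 neural members with the lowest tail values relative to brachial, and because they differ in composition. Capitals mark CpG, a C followed by a G.
Pcdh17: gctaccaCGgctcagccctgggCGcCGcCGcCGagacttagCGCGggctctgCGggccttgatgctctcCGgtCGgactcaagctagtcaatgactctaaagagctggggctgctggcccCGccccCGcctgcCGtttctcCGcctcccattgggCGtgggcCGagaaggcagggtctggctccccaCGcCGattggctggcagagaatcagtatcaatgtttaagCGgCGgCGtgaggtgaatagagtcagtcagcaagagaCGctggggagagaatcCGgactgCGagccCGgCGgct
Cdh10: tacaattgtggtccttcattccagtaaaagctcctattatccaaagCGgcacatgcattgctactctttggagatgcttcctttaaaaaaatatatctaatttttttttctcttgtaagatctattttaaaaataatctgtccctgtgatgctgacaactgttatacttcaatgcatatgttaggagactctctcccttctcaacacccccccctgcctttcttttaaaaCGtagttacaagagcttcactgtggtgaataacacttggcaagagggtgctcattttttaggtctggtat
Cdh20: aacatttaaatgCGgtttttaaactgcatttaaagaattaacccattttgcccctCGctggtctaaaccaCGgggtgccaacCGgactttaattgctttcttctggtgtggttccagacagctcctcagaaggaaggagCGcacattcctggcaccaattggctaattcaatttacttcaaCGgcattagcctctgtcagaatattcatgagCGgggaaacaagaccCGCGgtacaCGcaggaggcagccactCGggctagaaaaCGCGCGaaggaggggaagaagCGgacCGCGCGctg
The Pcdh17 window held 26 CpG at 65.0% GC and the Cdh20 window 18 CpG at 50.7% GC, whereas the Cdh10 window held 2 CpG at 37.7% GC. Over 32841 promoters the medians were 7 CpG and 52.7% GC, and 83.1%, 70.3% and 14.1% of them held fewer CpG than Pcdh17, Cdh20 and Cdh10, respectively. The 3 genes thus shared the direction of their difference between the groups and not the composition of the listed windows. The short motifs were searched on both strands: CAGGTG, the E-box bound by Snail factors, is found in 20.2% of all promoters, CTTTGA, the TCF/LEF core, in 16%, and ACAAT, the SOX core, in 31%. None of the 5 windows held the first or the second, and ACAAT was matched only in Cdh10, by 2 overlapping matches on opposite strands.

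Each value is a log2 signal normalized by RMA. This method gives the probe signals of all arrays the same distribution before they are summarized, so a difference in total RNA cannot be read from the values. The values lay between 0.820 and 13.1 and the medians of the 6 arrays between 4.82 and 4.91. Probes of different genes bind with different strength, so each gene was compared between arrays and not with another gene. Before any group comparison, 1 array of each group stood apart. On the first principal component, which held 54.7% of the variance, brachial replicate 1 (-3.46) and tail replicate 3 (1.54) sat near the middle, with brachial replicates 2 and 3 at -46.3 and -47.7 and tail replicates 1 and 2 at 56.8 and 39.1. All 12 neural progenitor markers of a list were measured and their mean log2 signal was 9.23 to 9.43 in brachial and 8.62 to 9.14 in tail arrays, 3 of them lower in tail at an unadjusted p under 0.05 and 0 after adjustment (median log2 fold change -0.37). The mean over 15 mesenchyme markers was 8.39 in brachial replicate 1 against 5.40 and 5.19 in the other two, and 9.60, 9.40 and 8.40 in the tail arrays. Member results that rest on these 2 arrays are given with and without them.

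No member passed limma at a Benjamini-Hochberg adjusted p of 0.05 over all genes. Over all 22180 genes, 9 (0.0406%) were called lower and 14 (0.0631%) higher in tail NPCs. At an unadjusted p under 0.05, 4 members were lower in tail NPCs (Pcdh17, Cdh13, Cdh10 and Cdh4), beside 6.39% of all genes, and 1 was higher (Cdh11), beside 5.43%. The methods' t-test, named there for comparing 2 groups in general (the arrays themselves were compared there by fold change), called 0 genes after adjustment. Before it, 5 members were lower, beside 4.73% of all genes, and 1 was higher, beside 3.68%. Limma called 3 members lower without tail replicate 3 (Cdh10, Cdh13 and Pcdh17), beside 0.577% of all genes, and Cdh11 higher without brachial replicate 1, beside 0.334%. Without both arrays it called the same 3 members lower, beside 1.70%, and Cdh11 higher, beside 2.40%. That setting was chosen after the values had been seen. It removes the array of each group that lay nearest to the other group on the first principal component, and 908 genes were then called. Without tail replicate 1 or without tail replicate 2 limma called 0 genes, and without brachial replicate 2 or 3 it called 0 members. A mean difference of 2-fold or more was reached by 4 members in the lower direction (Pcdh17, Cdh13, Cdh10 and Cdh20), where 1.74% of all genes reached it, and by Cdh11 in the higher direction, where 2.35% did. All tail arrays were below all brachial arrays for 5 members (the 4 of the unadjusted count and Cdh2), as for 9.36% of all genes, and above them for Cdh11, as for 6.88%. The median log2 fold change of the 10 members, tail minus brachial, was -0.62 and that of all genes -0.028. Of the 10 members 9 were below 0, as were 12250 of all 22180 genes. These shares describe the members, which were chosen with results of these arrays known.

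**Figure D1:**
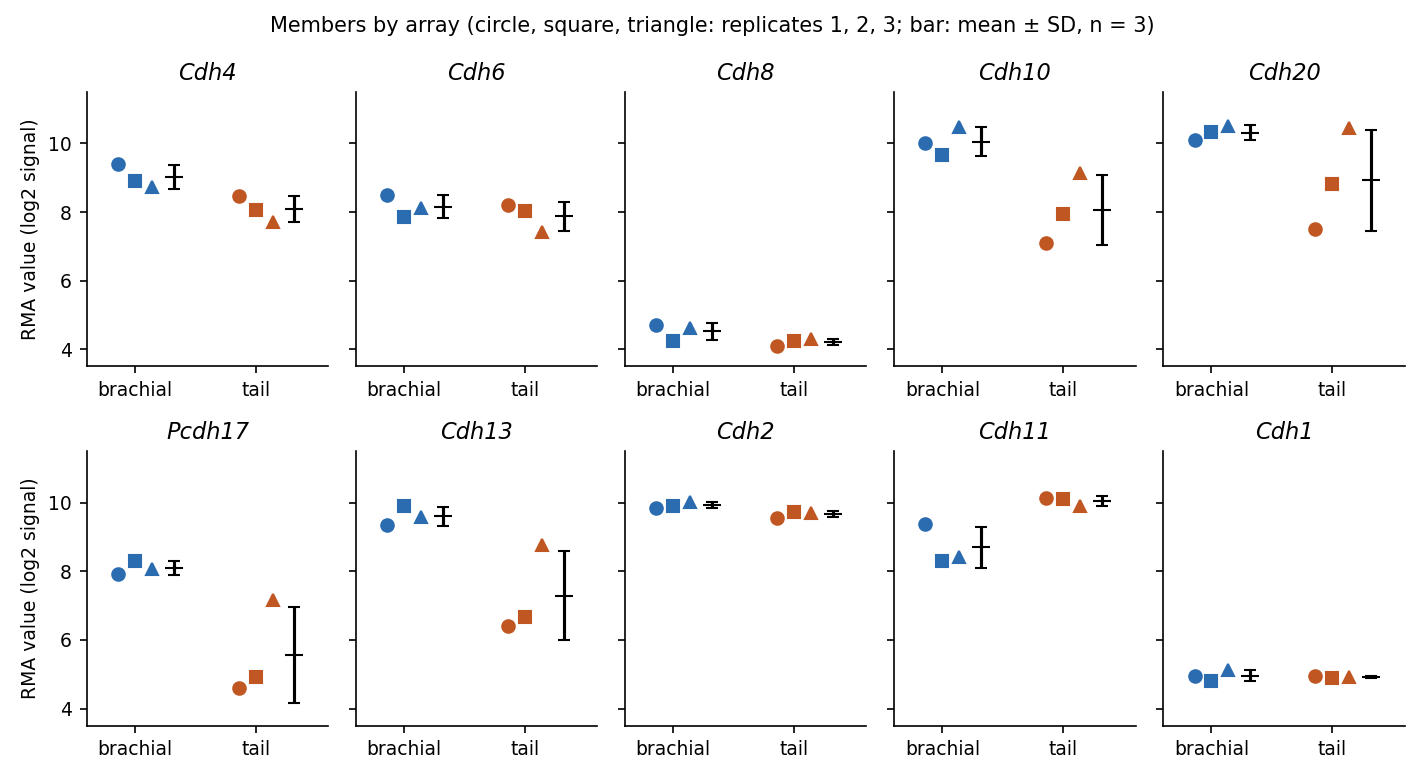
RMA value (log2 signal, vertical axis) of the 10 members in 3 brachial (blue) and 3 tail (orange) arrays, with circle, square and triangle for replicates 1, 2 and 3 and a bar for the mean ± SD (n = 3). For Pcdh17, Cdh13, Cdh10 and Cdh20 tail replicate 3 lies nearest to the brachial arrays, and for Cdh11 brachial replicate 1 lies nearest to the tail arrays.

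Pcdh17, a protocadherin of growing axons and synapses, had the largest difference of the set. In the order of the replicate numbers, which holds for all values below, its log2 signal read 7.91, 8.31 and 8.06 in the brachial arrays and 4.59, 4.91 and 7.17 in the tail arrays. All tail arrays were below all brachial arrays, and tail replicate 3 exceeded the mean of the other two by 2.42. The means were 8.09 ± 0.20 and 5.56 ± 1.41 (SD, n = 3), a log2 fold change of -2.54 ± 0.64 (SE, 95% interval -4.05 to -1.03). Tail replicates 1 and 2 lay near the medians of the arrays, and without a detection call such signals cannot be told from background. The value is therefore a difference of signals and not a measured fold of transcript. The difference did not pass limma over all genes (adjusted p = 0.253). Without tail replicate 3 it was -3.34 and passed (adjusted p = 0.0063), without tail replicate 1 it was -2.05 (adjusted p = 0.567), and over the 16 settings tried its adjusted p ranged from 0.0031 to 0.687.

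Cdh10, a type II cadherin of the nervous system, read 10.01, 9.66 and 10.49 in the brachial arrays and 7.09, 7.95 and 9.14 in the tail arrays. The groups did not overlap, and tail replicate 3 was again the highest tail array, 1.62 above the mean of the other two. The log2 fold change was -1.99 ± 0.50 (SE, 95% interval -3.18 to -0.80), 3.98-fold lower in tail NPCs, with an adjusted p of 0.253 by limma. It was -2.53 without tail replicate 3 (adjusted p = 0.0327) and -1.51 without tail replicate 1 (adjusted p = 0.538).

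Cdh20, a type II cadherin known from boundaries inside the neural tube, read 10.09, 10.33 and 10.52 in the brachial arrays and 7.52, 8.80 and 10.44 in the tail arrays. Tail replicate 3 lay inside the brachial range, so the groups overlapped. The log2 fold change of -1.39 ± 0.66 (SE, 95% interval -2.96 to 0.18) had an adjusted p of 0.471 by limma. Without tail replicate 3 it was -2.15 (adjusted p = 0.0641), and without tail replicate 1 it was -0.69 (adjusted p = 0.790), less than a 2-fold difference.

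Cdh4, or R-cadherin, a type I cadherin first described in the retina, read 9.40, 8.91 and 8.75 in brachial arrays and 8.48, 8.05 and 7.72 in tail arrays. The groups did not overlap, and here tail replicate 3 was the lowest array and not the highest of its group. The log2 fold change was -0.94 ± 0.25 (SE, 95% interval -1.53 to -0.35, adjusted p = 0.271 by limma), 1.91-fold lower in tail NPCs. Unlike the larger neural differences it shrank without tail replicate 3, to -0.754 (adjusted p = 0.211 by limma). Without brachial replicate 1 it was -0.746 (adjusted p = 0.258), and without both arrays -0.564 (adjusted p = 0.230). A second row of Cdh4 read 5.42 to 5.70 in brachial and 5.28 to 5.65 in tail arrays, with overlapping groups and a log2 fold change of -0.13 (adjusted p = 0.844 over all rows), so the difference was seen in 1 of its 2 rows.

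The last pair of neural members differed little. Cdh6, a type II cadherin of the kidney and of dorsal neural tube and neural crest, read 7.85 to 8.51 in brachial and 7.41 to 8.21 in tail arrays, with a log2 fold change of -0.28 ± 0.26 (SE, 95% interval -0.88 to 0.33, adjusted p = 0.735 by limma). Cdh8, a type II cadherin of the brain, read 4.23 to 4.70 and 4.11 to 4.29, close to the medians of the arrays, with a log2 fold change of -0.31 ± 0.16 (95% interval -0.68 to 0.07, adjusted p = 0.503). Both intervals include 0, and their lower bounds do not reach a 2-fold difference.

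Cdh13, or T-cadherin, is held in the membrane by a lipid anchor and has no tail that could bind catenins. It read 9.34, 9.90 and 9.58 in brachial arrays and 6.41, 6.67 and 8.77 in tail arrays. The groups did not overlap, and tail replicate 3 lay 2.23 above the mean of the other tail arrays. The log2 fold change was -2.32 ± 0.59 (SE, 95% interval -3.73 to -0.91), 4.99-fold lower in tail NPCs, with an adjusted p of 0.257 by limma and of 0.0079 without tail replicate 3, when the log2 fold change was -3.07. Without tail replicate 1 it was -1.88 (adjusted p = 0.578).

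Cdh2, or N-cadherin, the main cadherin of the neural tube, read 9.85, 9.91 and 10.03 in brachial arrays and 9.57, 9.73 and 9.69 in tail arrays. All tail arrays were below all brachial arrays by a small margin. The log2 fold change was -0.27 ± 0.12 (SE, 95% interval -0.55 to 0.01), 1.20-fold lower in tail NPCs, with an adjusted p of 0.445 by limma. Its second row read 7.53 to 7.83 and 7.14 to 7.45, also without overlap (log2 fold change -0.35, adjusted p = 0.545 over all rows). A higher N-cadherin signal in tail NPCs was thus not seen in either row, and a 2-fold difference lay outside both intervals, the wider of which ran from -0.70 to 0.01.

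Cdh11, counted as mesenchymal by background, was the only member with a higher mean in tail NPCs. It read 9.38, 8.30 and 8.42 in brachial arrays and 10.15, 10.11 and 9.89 in tail arrays. All tail arrays were above all brachial arrays, and its spread lay in the brachial group, where replicate 1 exceeded the mean of the other two by 1.02. The means were 8.70 ± 0.59 and 10.05 ± 0.14 (SD, n = 3), a log2 fold change of 1.35 ± 0.29 (SE, 95% interval 0.67 to 2.03), or 2.55-fold higher. Its adjusted p was 0.210 by limma over all arrays and 0.0212 without brachial replicate 1, when the log2 fold change was 1.69. With any other single array left out it lay between 1.15 and 1.43 and did not pass (adjusted p from 0.111 to 0.629). Without brachial replicate 1 and tail replicate 3 together it was 1.77 (adjusted p = 0.0088). That setting was chosen after the values had been seen. In brachial replicates 2 and 3 Cdh11 lay above the array medians (4.82 to 4.91). This level cannot be set against that of mesenchyme markers, since probes of different genes bind with different strength. Its label as mesenchymal rests on background and not on these values.

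Cdh1, or E-cadherin, the cadherin of epithelia, read 4.80 to 5.11 in brachial and 4.90 to 4.96 in tail arrays, close to the medians of the arrays. Its log2 fold change was -0.03 ± 0.13 (SE, 95% interval -0.32 to 0.27, adjusted p = 0.962 by limma), and its second row gave -0.05. The mean over 10 epithelium markers lay between 4.29 and 4.42 in all 6 arrays, with a median log2 fold change of -0.023 and 0 of the 10 past an unadjusted p of 0.05, the largest differences being -0.23 for Cldn6 and 0.23 for Tfap2c.

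**Figure D2:**
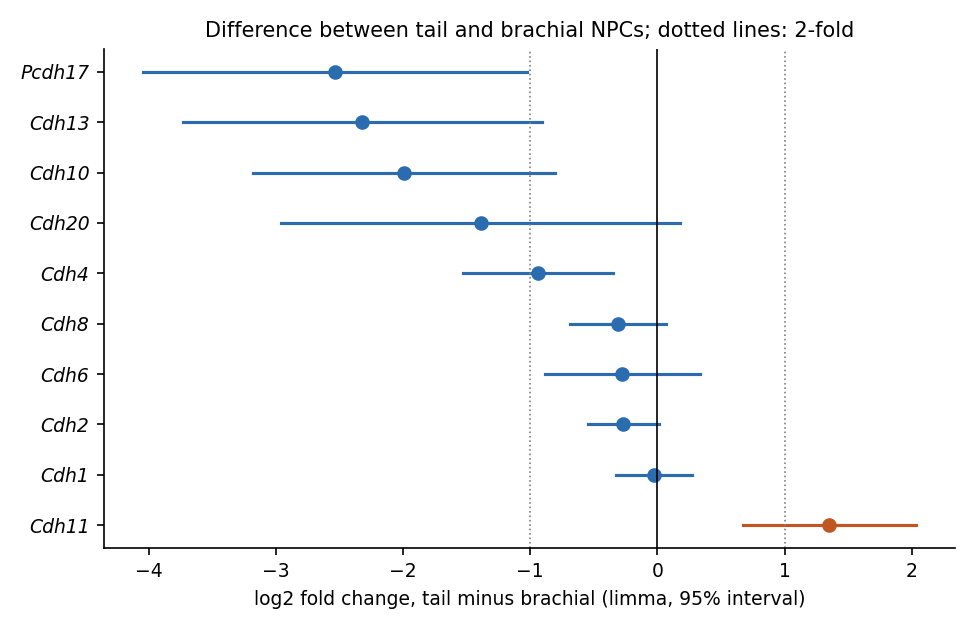
Log2 fold change of the 10 members, tail minus brachial NPCs (horizontal axis, limma), with the 95% interval as a line and dotted lines at a 2-fold difference. Pcdh17 (-2.54) and Cdh11 (1.35, orange) mark the ends, and the intervals of Cdh20, Cdh8, Cdh6, Cdh2 and Cdh1 include 0.

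The neural cadherins were then set against Cdh11 within each array, after every gene had been centred on its mean over the 6 arrays. The mean of the 6 neural members came to 0.70, 0.48 and 0.69 in brachial arrays and to -1.07, -0.74 and -0.04 in tail arrays. Cdh11 centred the same way was 0.00, -1.08 and -0.95 in brachial and 0.78, 0.74 and 0.52 in tail arrays. The neural mean therefore set tail replicate 3 apart from its group, and Cdh11 set brachial replicate 1 apart. Not all 6 neural members did so. Tail replicate 3 minus the mean of the other tail arrays was 2.42 for Pcdh17, 2.28 for Cdh20 and 1.62 for Cdh10. For Cdh8, Cdh4 and Cdh6 this difference was 0.11, -0.55 and -0.70. Cdh11 minus the neural mean was -0.70, -1.55 and -1.64 in brachial and 1.85, 1.48 and 0.56 in tail arrays. The 6 neural members had log2 fold changes below 0 and Cdh11 one above 0. A distance between the groups thus follows from how this difference was formed, and it is a description only. The group means of -1.30 ± 0.52 and 1.30 ± 0.66 (SD, n = 3) were 2.59 apart. Leaving out tail replicate 3 made this distance 2.96, leaving out brachial replicate 1 made it 2.89, and leaving out both made it 3.26. The median log2 fold change of the 6 neural members was -1.16, and it was also -1.16 once Cdh2 and Cdh13 were added. Limma called 0 of the 6, and 3 were lower at an unadjusted p under 0.05. All 6 were below 0, as were 12250 of all 22180 genes. No p is given for these summaries, since the members were chosen with results known, and 3 arrays against 3 allow no exact permutation p below 0.10.

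Markers of other cells moved across the same arrays. Of the 15 measured mesenchyme markers, limma called 0, and 13 were higher in tail NPCs at an unadjusted p under 0.05 (median log2 fold change 3.53). The collagen-binding proteoglycan Dcn read 9.94 in brachial replicate 1, 3.71 and 3.68 in the other brachial arrays and 11.25, 11.20 and 10.44 in the tail arrays, and the somite factor Meox2 read 7.82, 4.24 and 4.31 against 10.99, 10.65 and 8.81. As with Cdh11, brachial replicate 1 was the highest brachial array for both. The 10 skeletal muscle markers averaged 6.86 in brachial replicate 1, while the remaining 5 arrays lay between 4.87 and 5.17, with log2 fold changes of -1.32 for Myh3 (adjusted p = 0.555) and -1.16 for Actc1 (adjusted p = 0.728). The 7 glial precursor markers had a mean of 9.12, 9.10 and 9.03 in brachial and 7.85, 7.59 and 8.75 in tail arrays, so that tail replicate 3 stood nearest to the brachial arrays there too. All 7 were below 0 in log2 fold change (median -0.75), as were 12250 of all 22180 genes. At an unadjusted p under 0.05, 2 were lower, and 0 were called. Gpr17, a receptor of oligodendrocyte precursors, had a log2 fold change of -2.53 (adjusted p = 0.267) and the factor Nkx2-2 one of -1.26 (adjusted p = 0.382). Of 12 neuron markers 3 were lower and 0 higher at an unadjusted p under 0.05 (median -0.20), with the RNA-binding protein Elavl3 at -1.43 (adjusted p = 0.185) and the microtubule protein Dcx at -1.04 (adjusted p = 0.419), both without overlap. Of the neural progenitor markers, the glutamate transporter Slc1a3 was at -1.38 (adjusted p = 0.356) and Sox3 at -1.16 (adjusted p = 0.272). Of 6 measured Schwann and neural crest markers 0 passed an unadjusted p of 0.05 (median -0.086), and the largest differences were 1.96 for the neurotrophin receptor Ngfr (adjusted p = 0.447), at 7.97, 5.26 and 5.38 in brachial and 9.10, 8.62 and 6.77 in tail arrays, and -0.69 for Sox10 (adjusted p = 0.480). The part of these cells in the cadherin differences was not tested, and in bulk samples fewer cells of a type and less RNA per cell cannot be told apart.

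**Figure D3:**
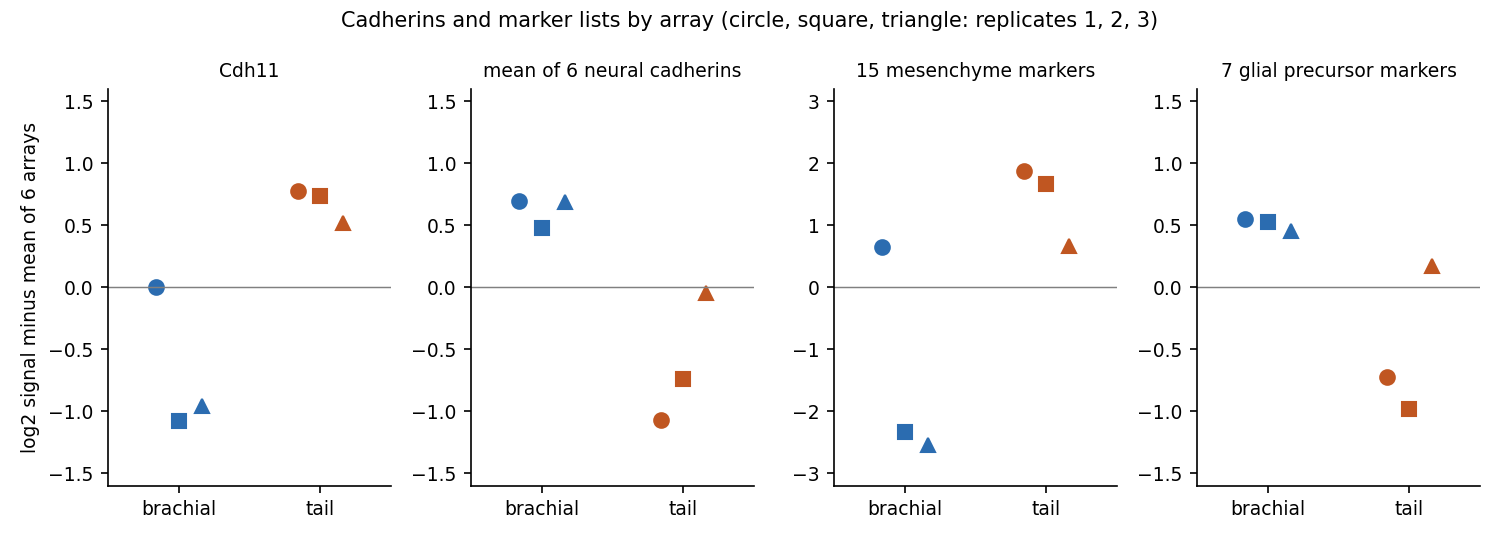
Log2 signal minus the mean of the 6 arrays (vertical axis) for Cdh11, the mean of the 6 neural cadherins, 15 mesenchyme markers and 7 glial precursor markers in brachial (blue) and tail (orange) arrays, with circle, square and triangle for replicates 1, 2 and 3. The axis of the mesenchyme panel covers a wider range than the other panels. Brachial replicate 1 stands above the other brachial arrays for Cdh11 and the mean of the mesenchyme markers. Tail replicate 3 stands above the other tail arrays for the mean of the neural cadherins and that of the glial precursor markers.

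The rest of the cadherin family was examined from lists, none of whose genes limma called. Of 11 other classical cadherins, 1 was lower and 2 were higher at an unadjusted p under 0.05, with a median log2 fold change of -0.11. Cdh3, or P-cadherin, an epithelial type I cadherin, read 4.87, 4.95 and 4.55 in brachial arrays and 8.38, 7.25 and 4.75 in tail arrays, so that 2 tail arrays were high and tail replicate 3 was inside the brachial range (log2 fold change 2.00, adjusted p = 0.418). Cdh19, a cadherin of the Schwann cell lineage, read 3.27, 5.85 and 6.41 against 3.21, 3.34 and 3.19, and was high in brachial replicates 2 and 3 alone (log2 fold change -1.93, adjusted p = 0.393). The low arrays of both genes lay near or under the array medians, so these are differences of signals with no measured level on the low side.

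Unclustered protocadherins, single genes outside the large protocadherin clusters and the class of Pcdh17, differed in both directions. Of the 11 others measured, 4 were lower and 4 higher at an unadjusted p under 0.05 (median log2 fold change -0.27), and the tail arrays were all below the brachial arrays for 6 and all above them for 4. Pcdh11x, an X-linked protocadherin of the brain, read 6.55, 7.03 and 7.84 in brachial arrays and 4.70, 5.06 and 5.35 in tail arrays. Unlike Pcdh17, all 3 of its tail arrays stayed together (log2 fold change -2.10 ± 0.34 SE, adjusted p = 0.117). These tail values lay near the array medians (4.82 to 4.91), so this too is a difference of signals with no measured level on the low side. Pcdh18 read 8.15, 5.78 and 5.84 against 8.94, 9.17 and 8.51, with brachial replicate 1 near the tail arrays (log2 fold change 2.28 ± 0.62 SE, adjusted p = 0.280). This class of protocadherins thus held genes of both directions.

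Large and atypical cadherins (16 genes, among them the planar polarity genes of the Fat, Dachsous and Celsr families) had 2 lower and 0 higher at an unadjusted p under 0.05 and a median log2 fold change of -0.058. The largest differences were those of Celsr1 (0.85, adjusted p = 0.441) and of the calsyntenin Clstn2 (0.82, adjusted p = 0.476). Of 7 desmosomal cadherins 0 passed an unadjusted p of 0.05 in either direction, and the largest log2 fold changes were 0.25 for Dsc2 and 0.18 for Dsc3.

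The catenins and other proteins that link junctions to actin had a median log2 fold change of 0.038 over 16 of 20 listed genes, with 3 lower and 3 higher at an unadjusted p under 0.05. Ctnnd2, or delta-catenin, a neural member of the p120 family that binds the cadherin tail, read 10.001, 10.376 and 10.240 in brachial arrays and 6.393, 7.417 and 9.365 in tail arrays, without overlap (log2 fold change -2.48 ± 0.68 SE, adjusted p = 0.281). Ctnna3, an alpha-catenin of heart muscle, read 4.42 to 7.05 and 5.18 to 8.48, with overlapping groups (log2 fold change 1.20, adjusted p = 0.677). Ctnnb1, or beta-catenin, which all classical cadherins bind and which was singled out after its values had been seen, read 10.58 to 10.64 and 10.51 to 10.75, and its 95% interval of -0.28 to 0.28 holds less than a 2-fold difference in either direction. Of 7 enzymes that process cadherins, 2 were higher at an unadjusted p under 0.05, the gamma-secretase subunit Ncstn (0.45, adjusted p = 0.326) and the proprotein convertase Furin (0.43, adjusted p = 0.364).

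Transcription factors known to repress Cdh1 had the highest median of the lists of the adhesion machinery, 0.97 over 5 of 6 listed genes, with 4 higher at an unadjusted p under 0.05. Snai2, or Slug, read 7.55, 5.48 and 4.84 in brachial arrays and 9.78, 9.46 and 8.13 in tail arrays, without overlap (log2 fold change 3.17 ± 0.74 SE, adjusted p = 0.234). Twist1 read 6.55, 5.25 and 5.03 against 7.17, 7.23 and 6.21 (log2 fold change 1.26, adjusted p = 0.366). Twist1 and Twist2 are also on the mesenchyme marker list. For both Snai2 and Twist1 brachial replicate 1 was the highest brachial array and tail replicate 3 the lowest tail array, while Cdh1 stayed near 5 in every array.

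**Figure D4:**
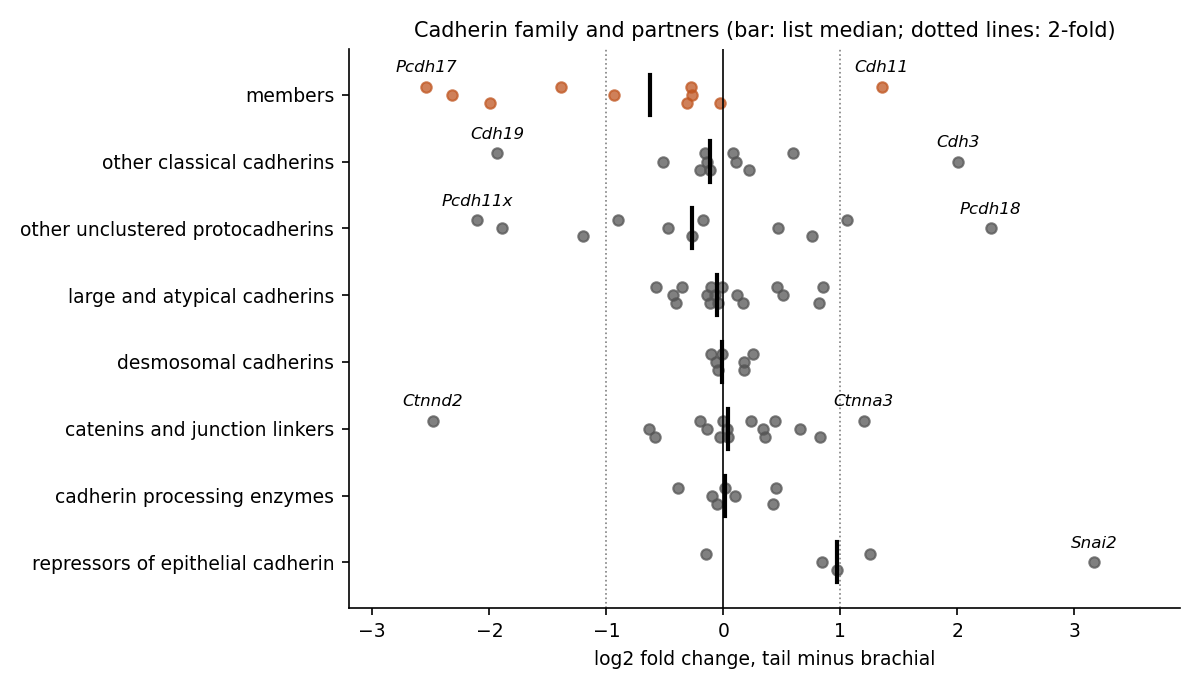
Log2 fold change, tail minus brachial NPCs (horizontal axis), of the 10 members (orange) and of the genes of 7 lists of the cadherin family and its partners (grey), with 1 point per gene, a bar at the list median and dotted lines at a 2-fold difference. The members range from -2.54 to 1.35, the other unclustered protocadherins from -2.10 to 2.28, and the desmosomal cadherins stay between -0.11 and 0.25.

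The genes most like the members at both ends were sought by the root mean square difference of centred log2 values over the 6 arrays. For Pcdh17 the nearest of all other genes was Cdh13 (0.14), followed by Ctnnd2 (0.21) and the potassium channel gene Kcna2 (0.24), which read 8.23, 9.21 and 8.67 in brachial and 5.65, 5.59 and 8.01 in tail arrays. For Cdh13 the nearest gene was likewise Pcdh17, a search added for this gene after the first had been seen. For Cdh11 the nearest were the calponin gene Cnn2 (0.14), A730028G07Rik (0.15) and the EGF receptor inhibitor Errfi1 (0.16). Cnn2 read 8.03, 7.16 and 7.14 against 8.58, 8.62 and 8.48, and Errfi1 8.85, 7.61 and 7.86 against 9.97, 9.61 and 9.52, both with brachial replicate 1 high in its group as for Cdh11. These likenesses are descriptions over 6 arrays that share the contrast between the groups.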

How the data were processed

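Each of 3 brachial and 3 tail NPC samples gave total RNA for 1 whole-transcript array. The deposited values are log2 signals per transcript cluster, which the authors made with RMA at gene level in Affymetrix Expression Console (versions not given in the sources used here). Background correction, quantile normalization and summary over probes are thus part of every value. A human array is named in the methods, but the annotation of the probes is that of mouse. The annotation gave exactly 1 symbol to 23521 of 41345 rows, and for the 1082 genes with several such rows the row with the highest mean over the 6 arrays was tested. Groups and replicate numbers came from the sample titles, and 0 columns of other samples were present.

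Tail minus brachial was fitted with limma 3.58.1 in R 4.3.3 (lmFit and eBayes, no block) over 22180 genes, and the threshold was 0.05 for p adjusted by Benjamini-Hochberg. A second row of a gene was read from the fit over all 41345 rows. The limma fit was tested on simulated data with known changes. The number of arrays, 3 per group, limits the precision. Members, lists and marker genes were chosen with earlier results of these data known, and the lists follow an earlier session's tables in part. Named are all members, of each list the called genes or, where none was called, the 2 with the largest absolute log2 fold change, and the 3 genes nearest to Cdh11 and to Pcdh17, with exceptions stated where they occur. Alternatives were eBayes with the trend and robust options, array weights, the methods' t-test (named there for 2 groups in general, while the arrays were compared by fold change), a replicate block, a filter on dim rows, the mean over a gene's rows, all rows tested, quantile normalization again, housekeeping centring, other summaries of the neural cadherins and each array left out. Leaving out brachial replicate 1 and tail replicate 3 together was added after seeing the data. Plots were drawn with Python 3.11.15 and matplotlib 3.10.9. The scanner files were not used here.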

Additional observations from a re-analysis of the deposited data

How the results depend on the processing

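Of 159 values of single members under the alternatives, 149 kept their direction and their side of the threshold, 8 came to pass it, 0 ceased to pass it and 2 changed sign (Cdh1 to 0.051 without brachial replicate 3, its range with 1 array left out being -0.10 to 0.051, and Cdh6 to 0.14 without brachial replicate 1 and tail replicate 3, against -0.44 to -0.040 with 1 array left out). The count of members called, 0 with all arrays, ranged from 0 to 3 with 1 array left out: 1 without brachial replicate 1 (Cdh11), when 105 of all genes were called, and 3 without tail replicate 3 (Cdh10, Cdh13 and Pcdh17), when 266 were. It was 4 without both arrays, a setting chosen after seeing the data that leaves 2 arrays per group, under which Cdh11 minus the neural mean was 3.26 (2.31 to 2.96 with 1 array left out). The count of all genes called was 23, and became 194 with the replicate block, 0 by the methods' t-test (816 higher and 1050 lower before adjustment), 39 with array weights, 6 with all rows tested, 0 to 266 with 1 array left out and 908 without both arrays. The cause of these shifts was not tested. Whether replicate numbers pair the samples is not stated in the sources and was not settled here. The deviations of same-numbered arrays from their group means correlated at 0.24, -0.12 and 0.21. Brachial replicates 1 and 3 correlated best with their own number, and brachial replicate 2 did not. Within a group such deviations sum to 0, so these correlations are not independent and cannot decide it. The replicate block called 0 members, and the lowest adjusted p among them was then 0.0598 (Cdh4). The median of the neural members lay between -0.91 and -1.45 in all settings. The filter on dim rows left 9 members, without Cdh8. Centring on 5 of 8 housekeeping genes that were found moved the median of all genes from -0.028 to -0.19 and the genes at an unadjusted p under 0.05 from 1205 higher and 1417 lower to 708 and 3012, and no member changed its direction. The values hold no detection call, so signals near or under the array medians (Cdh1, Cdh8, and Pcdh17 in tail replicates 1 and 2) cannot be told from background here.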

Other observations

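The genes nearest to the other large neural differences were examined after the values had been seen, by the same root mean square difference of centred log2 values over 6 arrays. For Cdh10 they were the brain chondroitin sulfate proteoglycan Cspg5 (0.19), the neuronal splicing factor Nova1 (0.20) and the chloride channel family gene Ttyh1 (0.22). Cspg5 read 10.50, 10.73 and 11.23 in brachial and 8.10, 8.81 and 10.09 in tail arrays. For Cdh20 they were the peptide transporter gene Slc15a2 (0.23), the metalloproteinase inhibitor Timp4 (0.23) and the fatty acid activating enzyme Acsbg1 (0.24). Slc15a2 read 9.36, 9.80 and 10.15 in brachial and 7.39, 8.19 and 9.64 in tail arrays.

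The pattern of Cdh3, high in tail replicates 1 and 2 only, was also that of Kdr, the VEGF receptor of endothelium, at 5.26, 5.44 and 5.09 in brachial and 9.81, 8.65 and 5.63 in tail arrays (log2 fold change 2.76, adjusted p = 0.355 by limma). The endothelial cadherin Cdh5 read 4.41 to 4.94 and 4.39 to 5.12 in the same arrays (log2 fold change 0.11, adjusted p = 0.895), and 1 of 10 endothelium markers was higher at an unadjusted p under 0.05, with a median of 0.061 and Tie1 at -0.22. These genes were singled out after their values had been seen.

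Nectin1, an adhesion gene that acts beside cadherins at junctions, read 7.51, 7.23 and 7.51 in brachial and 6.92, 6.74 and 6.68 in tail arrays, without overlap (log2 fold change -0.64 ± 0.14 SE, adjusted p = 0.212 by limma). The plakoglobin gene Jup read 7.48, 7.36 and 6.69 against 8.09, 7.85 and 7.56 (log2 fold change 0.66 ± 0.24 SE, adjusted p = 0.373). Among unclustered protocadherins, Pcdh15 (-1.89), Pcdh10 (-0.90) and Pcdh7 (-0.48) had all tail arrays below all brachial arrays and Pcdh8 (1.06), Pcdh12 (0.76) and Pcdh19 (0.47) had them above, on the log2 fold change scale, with adjusted p from 0.246 to 0.360. A second row of Pcdh15 had overlapping groups and a log2 fold change of -0.11 (adjusted p = 0.867 by limma over all rows). In its tested row tail replicates 1 and 2 read 4.53 and 3.97, under the array medians, so no level was measured on the low side. All of these were chosen after their values had been seen.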
